A study of Rattus norvegicus with 16 samples.

Results

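The 9 genes described here encode liver enzymes that break down amino acids. They were chosen by name (Tat, Tdo2, Hpd, Hal, Hgd, Fah, Sds, Agxt and Aadat) for their roles in amino acid breakdown. No measured value enters the rule, though earlier results of these data were known when it was written. All 9 are among the 17168 genes of the table, and all 9 were among the 11162 that passed the filter on low counts. The RNA came from liver of Sprague Dawley rats aged 20 weeks. Wild-type rats and rats in which Tspo was knocked out ate normally until week 12 and then had either chow or a methionine- and choline-deficient diet (MCD) for 8 weeks. Tspo encodes a protein of the outer mitochondrial membrane, and the MCD diet is a standard way to produce steatohepatitis, a fatty and inflamed liver. Each of the 4 groups (wild type on chow, knockout on chow, wild type on MCD, knockout on MCD) had 4 libraries, 16 in all. The knocked-out allele is not described in the sources used here, and neither is whether each library is its own animal; the p-values reflect only the scatter among these libraries.

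The liver is the main site where surplus amino acids are degraded. Each amino acid has its own chain of enzymes, and the carbon that remains feeds glucose production, ketone bodies or the citric acid cycle. Tyrosine passes in order through tyrosine aminotransferase (Tat), 4-hydroxyphenylpyruvate dioxygenase (Hpd), homogentisate dioxygenase (Hgd) and fumarylacetoacetase (Fah), the last step of the route. Tryptophan 2,3-dioxygenase (Tdo2) opens the kynurenine route, on which Aadat, an aminotransferase of kynurenine and of the lysine product aminoadipate, also acts. Histidine ammonia-lyase (Hal) opens histidine breakdown, serine dehydratase (Sds) turns serine into pyruvate, and alanine-glyoxylate aminotransferase (Agxt) removes glyoxylate. Tat and Tdo2 are textbook genes of the response to glucocorticoids, and Tat, Sds and others of the set also respond to glucagon.

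The 250 bases before the start of the 4 tyrosine genes are shown as a description of that route. No link between these sequences and the diet differences was tested. They come from RefSeq on the GRCr8 assembly, which is not the rn6 build that the submitters name, and 7 of the 9 genes have an entry there. The stretches are chr19:54856354-54856603 on the plus strand for Tat, chr12:39041996-39042245 on the plus strand for Hpd, chr11:76643768-76644017 on the minus strand for Hgd and chr1:147980606-147980855 on the minus strand for Fah. Capitals mark matches, on either strand, to a CCAAT box (CCAAT), a GC box (GGGCGG), an HNF1 core (GTTAAT) or a nuclear receptor core (AGGTCA), and no match overlapped another in these 4 stretches.
Tat: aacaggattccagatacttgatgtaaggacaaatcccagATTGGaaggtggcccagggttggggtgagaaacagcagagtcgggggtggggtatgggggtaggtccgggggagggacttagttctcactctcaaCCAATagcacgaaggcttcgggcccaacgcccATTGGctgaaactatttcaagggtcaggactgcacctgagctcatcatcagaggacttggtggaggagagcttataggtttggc
Hpd: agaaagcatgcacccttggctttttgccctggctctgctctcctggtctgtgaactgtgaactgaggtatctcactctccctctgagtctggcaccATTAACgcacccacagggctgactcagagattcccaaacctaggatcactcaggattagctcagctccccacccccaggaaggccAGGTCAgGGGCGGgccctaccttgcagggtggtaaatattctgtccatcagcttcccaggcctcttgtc
Hgd: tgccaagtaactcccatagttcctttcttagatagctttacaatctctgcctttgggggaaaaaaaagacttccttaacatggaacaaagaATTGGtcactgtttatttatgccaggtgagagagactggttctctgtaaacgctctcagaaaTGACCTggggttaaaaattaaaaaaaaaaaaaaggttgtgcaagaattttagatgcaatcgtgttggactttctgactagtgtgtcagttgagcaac
Fah: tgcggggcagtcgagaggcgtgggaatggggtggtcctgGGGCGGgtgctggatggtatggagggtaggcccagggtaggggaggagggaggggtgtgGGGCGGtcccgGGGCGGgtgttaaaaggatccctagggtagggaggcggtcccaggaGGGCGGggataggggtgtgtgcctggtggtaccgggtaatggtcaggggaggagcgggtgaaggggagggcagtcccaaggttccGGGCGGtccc
The stretch before Tat held 3 CCAAT boxes and no GC box, and that before Fah held 5 GC boxes and no CCAAT box. Hgd had 1 CCAAT box and 1 nuclear receptor core, and Hpd had 1 GC box, 1 HNF1 core and 1 nuclear receptor core. Over 33469 rat promoter windows of this length, 34.0% held CCAAT, 30.5% GGGCGG, 6.45% GTTAAT and 14.1% AGGTCA. The glucocorticoid receptor core AGAACA, found in 17.5% of windows, was in the window of 1 of the 7 genes, Agxt. A further entry for Agxt, not counted here, held no AGAACA and 1 CCAAT box. The cyclic AMP response element core TGACG, found in 18.2% of windows, was in none of the 7, and the TATA box TATAAA, found in 12.9%, was in that of Tdo2. These are matches of letters and not measured binding sites, and sequence further upstream was not searched.

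Library totals ran from 8745756 to 15762650 counts, and levels are given in CPM, which scales each count by the library total times its TMM factor. Those factors were 0.64417 to 1.0006 in the chow libraries and 1.1388 to 1.3478 in the MCD libraries, so every change is relative to the bulk of genes. Values per gene are not divided by gene length, and levels are therefore compared between libraries and never between genes. The targeted gene Tspo lay at 3.61 to 5.23 CPM in the wild type on chow and at 7.63 to 9.33 CPM in the wild type on MCD. In 6 of the 8 knockout libraries it lay at 0.656 to 1.66 CPM, but the knockout-labelled chow library 4 had 4.42 CPM and the knockout-labelled MCD library 1 had 4.17 CPM. Both of these, with the wild type on chow number 4, also stood apart on the second principal component of log2 CPM. They lay at 32.9 to 63.7 there, against -43.2 to 9.12 in the other 13 libraries. Wild type on chow numbers 1 to 3 lay at the other end, from -43.2 to -24.8. Results are given with and without the 3 libraries at 32.9 to 63.7 where that changed them. Those 3 were picked from these same data. The defining hepatocyte genes were present throughout: the 8 markers, albumin among them, summed to between 177100 and 254800 CPM on chow and between 102300 and 144100 CPM on MCD, and none was at 0.

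Most of the 9 enzymes were lower on the MCD diet in both genotypes, and none passed the test higher. Among wild-type libraries 6 of 9 passed the test lower (Hal, Fah, Hgd, Agxt, Aadat and Sds), and in the knockout 7 of 9 did, the same 6 and Hpd. Tat and Tdo2 passed in neither. Over all genes tested, 15.9% passed lower between wild-type groups and 18.5% between knockout groups, with 34.1% and 40.4% passing in either direction. The median log2 difference of the 9 was -1.2 in each genotype, beside -0.0023 and 0.041 over all genes. With no scaling factors 5 of 9 wild-type differences passed lower (Aadat did not), and 3 of 9 knockout ones did (Fah, Hal and Sds), a setting that puts the median gene at 0.53 and 0.77. To pass means an adjusted p (Benjamini-Hochberg, all 11162 genes) under 0.05 in edgeR's quasi-likelihood test. The libraries of the diets did not overlap for 7 of 9 enzymes of the wild type and 6 of 9 of the knockout, where 17.9% and 14.0% of all genes were lower without overlap and 20.1% and 17.6% higher. Liver tissue mixes cell types, so fewer hepatocytes and less of these RNAs per hepatocyte cannot be told apart. Of the 8 hepatocyte markers 6 also passed lower in each genotype, with a median of -0.85 for wild type and -1.01 for knockout.

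Ranked by group mean, both chow groups stood above both MCD groups for each of the 9 enzymes, as for 37.3% of all genes. The 2 chow groups overlapped in all 9, where 2.59% of all genes were lower and 1.76% higher in the knockout without overlap. The 2 MCD groups also overlapped in all 9, beside 0.376% and 0.421% of all genes. For 5 enzymes (Hgd, Fah, Aadat, Hal and Agxt) every chow library of both genotypes was above every MCD library, as for 7.82% of all genes. For Sds, Tat, Tdo2 and Hpd some chow library lay within the MCD range.

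**Figure D1:**
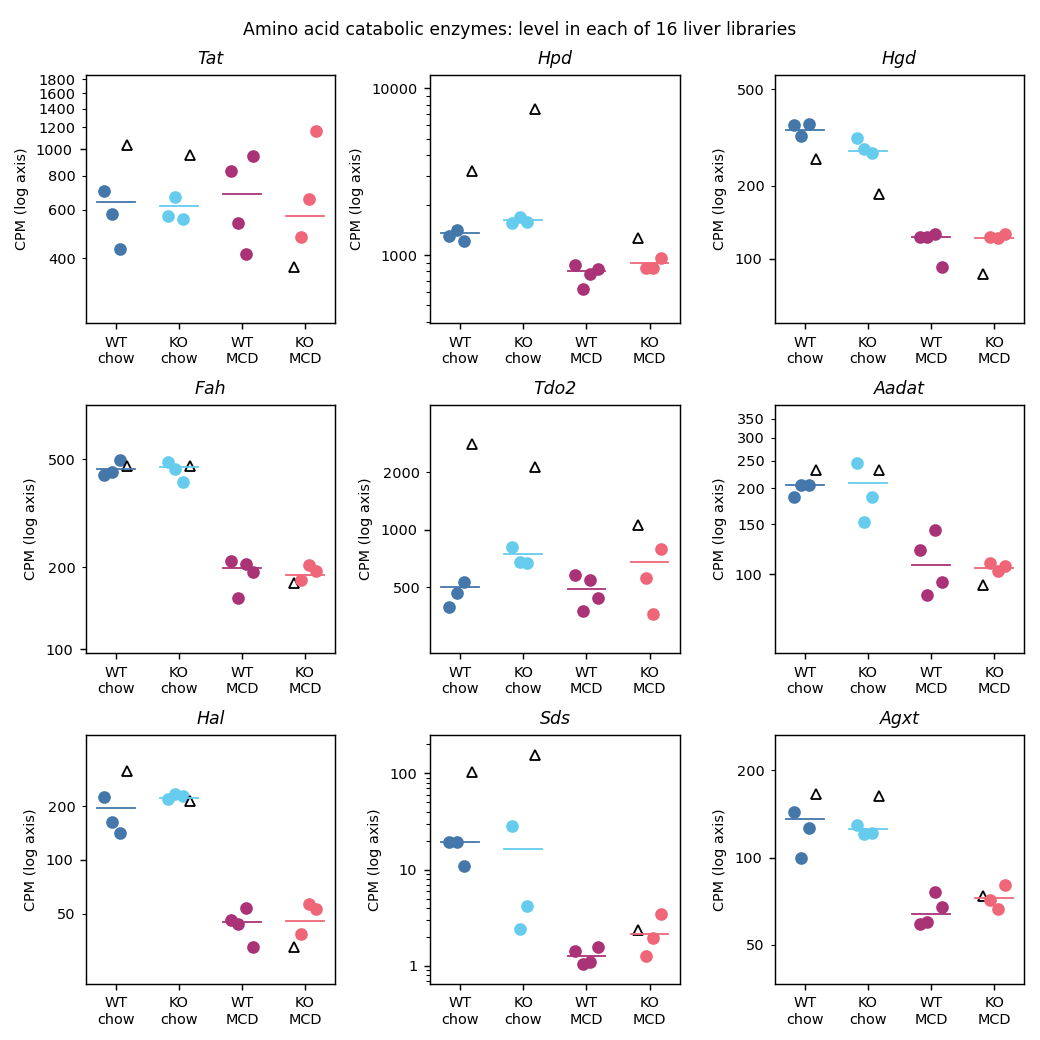
Level of each enzyme in CPM (log axis, a separate scale per panel) in the 4 libraries of each group, with a line at the group's median. Open triangles are the 3 libraries that stood apart. The MCD points lie below all chow points for Hgd, Fah, Aadat, Hal and Agxt, while the Tat points overlap across all 4 groups.

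The first step of tyrosine breakdown did not pass the test between diets, and whether it differed from the later steps was not tested. Tat, which takes the amino group off tyrosine, was at 706, 578, 434 and 1038 CPM in wild type on chow libraries 1 to 4 and at 831, 539, 414 and 945 CPM on MCD. In the libraries labelled knockout it was at 571, 668, 556 and 954 CPM on chow and at 371, 480.3, 661 and 1168 CPM on MCD. All 4 groups overlapped, with means of 670.1 to 689 CPM, and the knockout group spread more widely on MCD (a coefficient of variation of 52.7%) than on chow (26.9%). The log2 difference between diets was -0.01 ± 0.36 (SE) in the wild type (adjusted p = 0.980) and -0.04 ± 0.36 in the knockout (adjusted p = 0.944). The 95% intervals, -0.79 to 0.77 and -0.82 to 0.74, leave room for a change either way. Without the 3 libraries that stood apart the differences were 0.25 and 0.36, and with no scaling factors 0.52 and 0.75, and neither passed.

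Hpd, the next enzyme, makes homogentisate. Its wild-type levels were 1305, 1414, 1214 and 3193 CPM on chow and 871, 626, 772 and 831 CPM on MCD. Libraries labelled knockout had 1559, 1703, 1572 and 7567 CPM on chow and 1276, 839, 843 and 957 CPM on MCD. All MCD libraries lay below all chow libraries of their genotype, but number 4 of each chow group lay far above the other 3. The difference was -1.201 ± 0.46 in the wild type, which missed the threshold (adjusted p = 0.0543), and Hpd fell by 1.66 ± 0.47 on the log2 scale in the knockout (adjusted p = 0.0106). Without the 3 libraries that stood apart the changes were smaller and both passed, at -0.76 (adjusted p = 0.000261) and -0.87 (adjusted p = 0.000144). Without the knockout-labelled chow library 4 alone, the knockout value was -0.72 and no longer passed (adjusted p = 0.0622), while the wild-type value stayed at -1.2 and passed (adjusted p = 0.0028).

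Hgd opens the ring of homogentisate, and its loss in people causes alkaptonuria. It was at 357, 322, 359 and 259 CPM in the wild type on chow and at 124, 123, 127 and 92.4 CPM on MCD. The libraries labelled knockout had 314, 283, 273 and 186 CPM on chow and 86.8, 123, 122 and 127 CPM on MCD. No MCD library reached the lowest chow library. Hgd fell by 1.48 ± 0.19 on the log2 scale, 2.79-fold, in the wild type (adjusted p = 5.27e-05). In the knockout it fell by 1.204 ± 0.19, 2.30-fold (adjusted p = 0.000221). In all 3 libraries that stood apart Hgd was the lowest of its group, where Hpd was the highest.

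Fah cleaves fumarylacetoacetate, and its deficiency is the cause of hereditary tyrosinemia type 1. Of the 9 enzymes it had the smallest spread among the wild-type chow libraries, at 437, 449, 496 and 471 CPM, with a coefficient of variation of 5.59%. On MCD the wild-type libraries were at 212, 154, 206 and 193 CPM. Chow libraries labelled knockout had 487, 461, 413 and 473 CPM and MCD libraries 175, 179, 205 and 195 CPM. The diets did not overlap, and the genotypes did on each diet. Fah fell by 1.28 ± 0.14 on the log2 scale in the wild type (adjusted p = 1.45e-05) and by 1.28 ± 0.14 in the knockout (adjusted p = 1.16e-05), a fold of 2.42 and 2.43. In the libraries that stood apart it was at 0.8995 to 1.049 times the median of the other 3 libraries of the group.

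Tdo2 commits tryptophan to the kynurenine route. It was at 393, 466, 536 and 2822 CPM in the wild type on chow and at 584, 375, 546 and 438 CPM on MCD. Libraries labelled knockout had 817, 676, 674 and 2132 CPM on chow and 1066, 559, 361 and 798 CPM on MCD. The diets overlapped in both genotypes, and number 4 of each chow group was the highest by far. The differences of -1.12 ± 0.57 (adjusted p = 0.137) and -0.63 ± 0.57 (adjusted p = 0.389) did not pass. Leaving out the 3 libraries, the wild-type difference was 0.06 (adjusted p = 0.834) and the knockout one -0.33 (adjusted p = 0.258).

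Aadat, the aminotransferase of the same route, did pass. It was at 187, 206, 206 and 232 CPM in the wild type on chow and at 122, 84.8, 143 and 94.4 CPM on MCD. Libraries labelled knockout had 245, 153, 186 and 231 CPM on chow and 92.1, 109.8, 103 and 107 CPM on MCD. No MCD library reached any chow library. Aadat fell by 0.90 ± 0.18 on the log2 scale in the wild type (adjusted p = 0.00172) and by 0.98 ± 0.18 in the knockout (adjusted p = 0.000792). With no scaling factors the values were -0.37 (adjusted p = 0.0878) and -0.24 (adjusted p = 0.243).

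Hal removes ammonia from histidine to give urocanate. It was at 226, 163, 142 and 312 CPM in the wild type on chow and at 45.9, 43.7, 53.8 and 32.5 CPM on MCD. In libraries labelled knockout it was at 219, 233, 227 and 214 CPM on chow and at 32.6, 38.6, 57.0 and 52.9 CPM on MCD. The highest MCD library was at 57.0 CPM and the lowest chow library at 142 CPM. Hal fell by 2.26 ± 0.25 on the log2 scale, 4.80-fold, in the wild type (adjusted p = 1.34e-05). In the knockout it fell by 2.30 ± 0.25, 4.92-fold (adjusted p = 9.81e-06). The wild-type change was -2.01 when the 3 libraries were left out.

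Sds, which feeds serine into glucose production, had the steepest fitted change and the widest spread. It was at 19.2, 19.3, 11.0 and 104 CPM in the wild type on chow and at 1.44, 1.04, 1.09 and 1.55 CPM on MCD, the latter from 16 to 33 counts. Libraries labelled knockout had 28.5, 2.41, 4.16 and 157 CPM on chow and 2.36, 1.26, 1.96 and 3.48 CPM on MCD. The wild-type diets did not overlap, but chow number 2 of the knockout, at 22 counts, lay inside the range of its MCD group. Sds fell by 4.89 ± 1.12 on the log2 scale in the wild type (adjusted p = 0.00365) and by 4.39 ± 1.07 in the knockout (adjusted p = 0.00464). Single libraries set the size: without the wild type on chow number 4 the wild-type value was -3.68 (adjusted p = 0.0116). Without the knockout-labelled chow library 4 the knockout value was -2.35 (adjusted p = 0.0343). With every library kept, limma on the deposited CPM gave -3.55 (adjusted p = 0.00602) and -2.41 (adjusted p = 0.0404). It averages values on a log2 scale with a pseudocount of 1. That scale shrinks changes of low genes and also gives a single high library less weight. The part of each in these smaller values was not tested.

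Agxt detoxifies glyoxylate, and its loss in people causes primary hyperoxaluria. It was at 144, 99.7, 127 and 165 CPM in the wild type on chow and at 58.8, 60.0, 76.1 and 67.4 CPM on MCD. Libraries labelled knockout had 129.8, 120.2, 121 and 163 CPM on chow and 73.9, 71.3, 66.6 and 80.6 CPM on MCD. The diets did not overlap in either genotype. Agxt fell by 1.03 ± 0.17 on the log2 scale, 2.04-fold, in the wild type (adjusted p = 0.000296). In the knockout it fell by 0.87 ± 0.17, 1.82-fold (adjusted p = 0.000875).

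**Figure D2:**
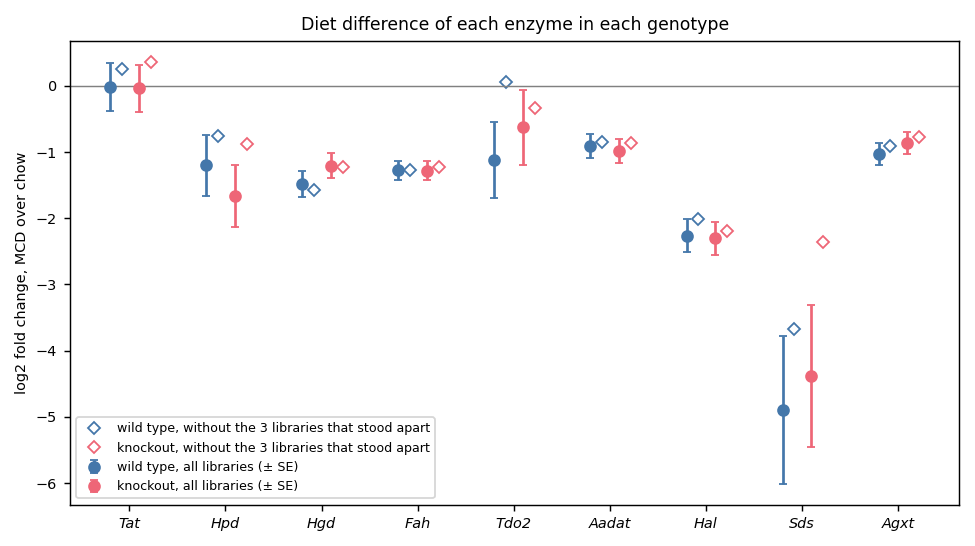
Log2 fold change between MCD and chow for each enzyme, with wild type in blue and knockout in red. Filled circles are all libraries with bars of 1 SE, and open diamonds are the values without the 3 libraries that stood apart. Fah, Hgd, Aadat, Hal and Agxt move little when those libraries are left out, while Sds, Tdo2 and Hpd lie closer to 0.

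The 3 libraries that stood apart differed from their groups in some of the 9 enzymes and not in others. In the wild type on chow number 4, Tdo2 was at 6.06 times the median of the other 3 libraries, Sds at 5.41 times, Hpd at 2.45 times, Hal at 1.91 times and Tat at 1.80 times. Hgd was at 0.724 times and Fah at 1.05 times. The knockout-labelled chow library 4 had Sds at 37.7 times, Hpd at 4.82 times, Tdo2 at 3.15 times and Tat at 1.67 times the median of the others. Hgd there was at 0.656 times, Hal at 0.942 times and Fah at 1.03 times. The knockout-labelled MCD library 1 had Tdo2 at 1.91 times and Hpd at 1.51 times, but Tat at 0.562 times, Hal at 0.617 times and Hgd at 0.708 times. Tdo2 and Hpd were thus the highest of their group and Hgd the lowest in all 3, while Tat was highest in the chow pair and lowest in the MCD library. The summed hepatocyte markers were lowest of their group in each of the 3, at 177100, 186500 and 109300 CPM. The part of these markers and of the unexpected Tspo level in the enzymes' values was not tested.

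**Figure D3:**
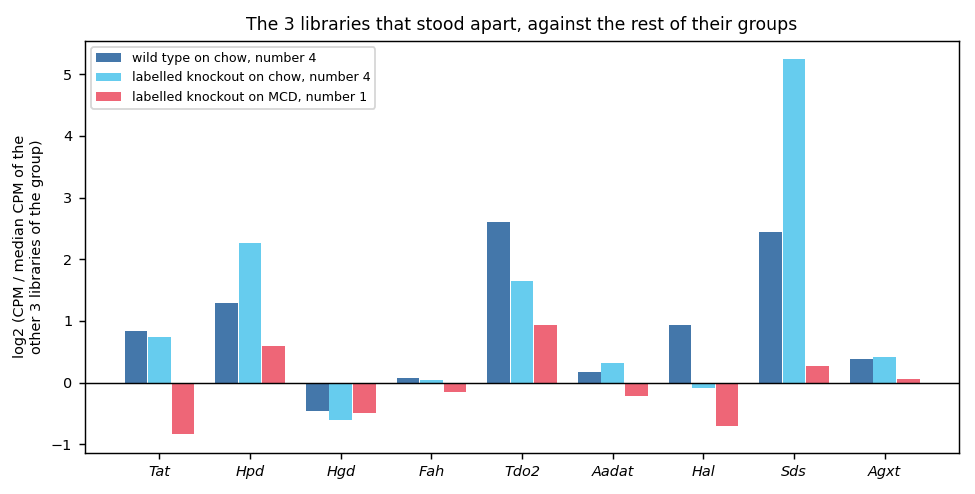
Log2 ratio of each enzyme's CPM to the median of the other 3 libraries of its group, in the 3 libraries that stood apart (wild type on chow number 4 in dark blue, labelled knockout on chow number 4 in light blue, labelled knockout on MCD number 1 in red). Hpd and Tdo2 are above 0 and Hgd is below 0 in all 3, and Sds reaches 5.24 in the knockout-labelled chow library 4.

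Knockout of Tspo gave no called difference in any of the 9 enzymes on either diet. On chow 0 of 9 passed, where 0.00896% of all genes (1 gene) did, and on MCD 0 of 9 passed, where 0.0% of all genes did. In edgeR's test 0 of 9 had an unadjusted p under 0.05 on either diet, beside 1152 of 11162 genes on chow and 81 on MCD. Limma called 0 of 9, as did DESeq2, which gave no adjusted p for Hpd. With all libraries kept, Hpd had the largest difference on chow, 0.80 ± 0.46 higher in the libraries labelled knockout (adjusted p = 0.510), with a 95% interval of -0.20 to 1.80. Without the knockout-labelled chow library 4 it was -0.145, and with all 3 libraries that stood apart left out Hpd was at 0.298, Tdo2 at 0.636 and Sds at -0.52. Fah was the most tightly bounded, with an interval of -0.32 to 0.29 on chow and -0.32 to 0.28 on MCD. For Hgd the interval on chow was -0.71 to 0.12, for Aadat -0.43 to 0.37 and for Agxt -0.36 to 0.35. For Sds it was -1.66 to 2.28, so even a large difference was not detectable there. On MCD the differences ran from -0.11 (Aadat) to 0.82 (Sds). All of these rest on knockout groups that each include a library in which Tspo was not low. In edgeR's test Tspo itself did not pass between genotypes on either diet. It was at -1.23 ± 0.49 on chow (adjusted p = 0.461) and at -2.07 ± 0.45 on MCD (unadjusted p = 0.000291). Passing in 0 of 9 therefore does not show equal levels. Without the 3 libraries that stood apart 516 genes passed between genotypes on chow, and still 0 of 9 enzymes did. Among other amino acid enzymes 2 then passed higher in the knockout, Agxt2, a mitochondrial alanine-glyoxylate aminotransferase (0.78 ± 0.15, adjusted p = 0.0185), and Hao1, the glycolate oxidase that makes glyoxylate (0.54 ± 0.13, adjusted p = 0.0335).

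The diet effect was also compared between genotypes in 1 model. The difference of the diet effects (knockout minus wild type) passed in 0 of 9 enzymes and in 0.0% of all genes, with 0 of 9 and 330 of 11162 genes at an unadjusted p under 0.05. It was -0.01 for Fah (95% interval -0.44 to 0.42), -0.04 for Hal (-0.77 to 0.69), -0.08 for Aadat (-0.64 to 0.48), 0.16 for Agxt (-0.35 to 0.67) and 0.28 for Hgd (-0.31 to 0.86). Hpd passed in the knockout only, but its difference of effects was -0.46 ± 0.64 (adjusted p = 1.00), so the genotypes were not shown to differ. For Tat, Tdo2 and Sds the intervals were -1.13 to 1.08, -1.25 to 2.23 and -2.60 to 3.60.

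To place the 9 among their neighbours, 58 other enzymes of amino acid breakdown were listed, of which 55 are in the table and 54 were tested. In the wild type 26 of 54 passed lower (48.15%) and 2 higher (3.7%), beside 15.9% and 18.2% of all genes. In the knockout 32 passed lower (59.26%) and 2 higher (3.7%), beside 18.5% and 21.9% of all genes. The median log2 differences of the 54 were -0.86 and -0.88. With the 3 libraries that stood apart left out, the wild-type counts were 33 lower and 8 higher, and those of the knockout 37 lower and 8 higher. Over all genes the calls in either direction also rose there, from 3809 to 5663 and from 4514 to 5793. With no scaling factors, a setting under which 508 genes passed lower and 4806 higher in the wild type, the list's counts were 14 lower and 8 higher there. In the knockout they were then 8 lower and 10 higher, beside 405 and 6448 over all genes.

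On the tyrosine route other genes passed lower too. Gstz1, maleylacetoacetate isomerase, sits between Hgd and Fah and fell by 1.38 ± 0.20 on the log2 scale in the wild type (adjusted p = 0.000127) and by 1.37 ± 0.20 in the knockout (adjusted p = 0.000109). Pcbd1, which recycles tetrahydrobiopterin, fell by 1.37 ± 0.35 and 1.34 ± 0.35 (adjusted p = 0.00807 and 0.00746). On the tryptophan route 6 of 8 other genes (75%) passed lower in each genotype, beside 15.9% and 18.5% of all genes. Kynu, kynureninase, fell by 1.22 ± 0.19 and 1.09 ± 0.19, and Ccbl1 (now Kyat1), another kynurenine aminotransferase, by 1.14 ± 0.19 and 1.19 ± 0.19.

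Both other tested genes of histidine breakdown passed lower together with Hal. Amdhd1, imidazolonepropionase, averaged 54.9 ± 23.4 CPM (SD, n = 4) in the wild type on chow and 12.1 ± 3.06 CPM on MCD. It fell by 2.18 ± 0.29 on the log2 scale there, and in the knockout it fell by 2.57 ± 0.30. Ftcd, the formiminotransferase that ends the route, fell by 1.34 ± 0.27 and 1.79 ± 0.28. Beside 15.9% and 18.5% of all genes, 4 of 11 other genes of serine, glycine and glyoxylate (36.4%) passed lower in each genotype, and none higher. They included Sdsl, a relative of Sds, which fell by 0.92 ± 0.20 and 1.15 ± 0.20, and Gcsh, a carrier protein of glycine cleavage, which fell by 0.93 ± 0.18 and 1.03 ± 0.18.

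Among the 54 other enzymes tested, the largest falls in both genotypes were those of Oat and Prodh2, on the proline and ornithine route. Oat, ornithine aminotransferase, averaged 164 ± 49.3 CPM in the wild type on chow and 16.8 ± 2.75 CPM on MCD (SD, n = 4). Oat fell by 3.29 ± 0.37 on the log2 scale there (adjusted p = 1.68e-05). In the knockout Oat fell by 3.73 ± 0.38 (adjusted p = 6.5e-06). Prodh2, hydroxyproline dehydrogenase, fell by 2.62 ± 0.30 and 2.99 ± 0.31. In cysteine breakdown Cdo1, cysteine dioxygenase, fell by 2.48 ± 0.42 and 2.28 ± 0.41. All 3 lysine genes passed lower in both genotypes, where 15.9% and 18.5% of all genes did. Among the lysine genes was Aass, the entry enzyme, at -1.85 ± 0.39 and -1.45 ± 0.38. Aldh7a1, the aldehyde dehydrogenase of lysine breakdown, was at -0.86 ± 0.19 in the wild type, and Dhtkd1, which acts on oxoadipate, at -1.25 ± 0.20 in the knockout.

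Branched-chain amino acid breakdown starts largely outside the liver. Of its 16 tested genes 4 passed lower (25%) and 2 higher (12.5%) in the wild type, beside 15.9% and 18.2% of all genes. In the knockout 7 passed lower and 2 higher, 43.8% and 12.5%, beside 18.5% and 21.9% of all genes. Auh, a hydratase of leucine breakdown, fell by 1.07 ± 0.21 and 1.11 ± 0.21, and Hibadh, of valine breakdown, by 0.77 ± 0.23 and 0.96 ± 0.23. Pcca, a subunit of propionyl-CoA carboxylase, rose by 0.51 ± 0.14 in the wild type (adjusted p = 0.0109) and by 0.64 ± 0.14 in the knockout (adjusted p = 0.00236). Hibch passed higher in the wild type, at 0.80 ± 0.21, and Bcat2, the first enzyme of the route, in the knockout, at 0.77 ± 0.21.

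**Figure D4:**
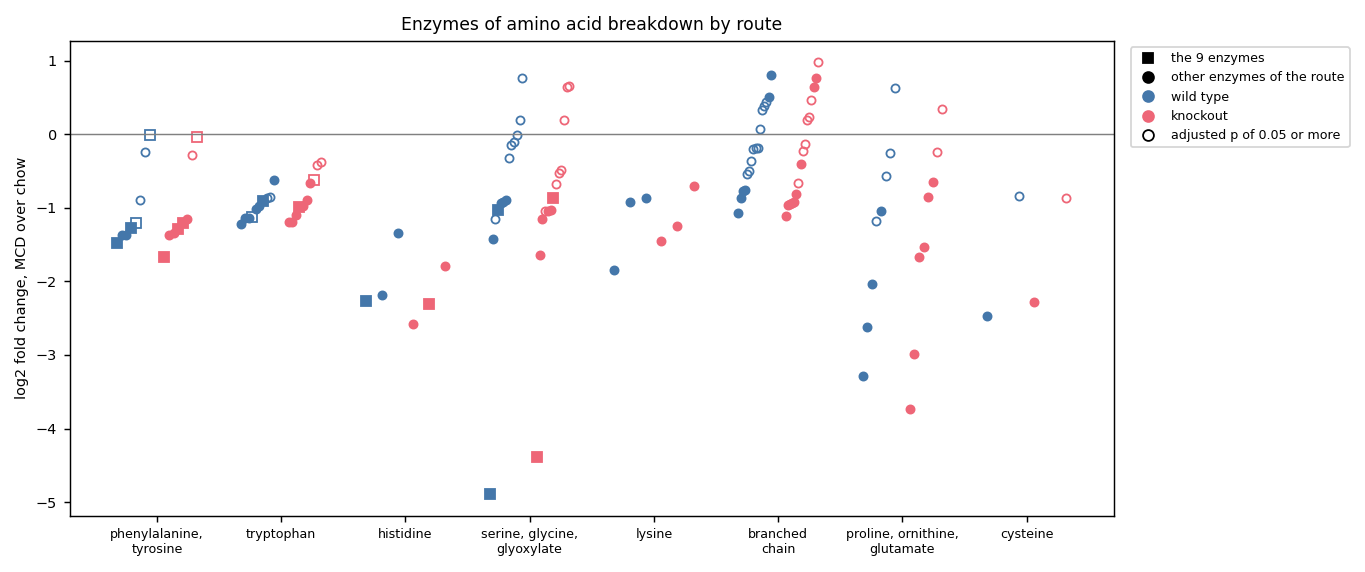
Log2 fold change between MCD and chow of the 9 enzymes (squares) and the 54 other tested enzymes (circles), grouped by the amino acid they break down, with wild type in blue and knockout in red. Filled symbols passed the test. Most routes lie below 0, the branched-chain genes lie on both sides, and the squares at -4.89 and -4.39 are Sds.

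Genes of the response to glucagon and glucocorticoids, receptors and targets among them, were followed as well. Of these 10 genes, 4 passed higher and 3 lower in the wild type, and 3 higher and 4 lower in the knockout. Over all genes 18.2% passed higher and 15.9% lower in the wild type, and 21.9% and 18.5% in the knockout. Gcgr, the glucagon receptor, fell by 1.16 ± 0.18 in the wild type (adjusted p = 0.000195) and by 1.07 ± 0.18 in the knockout (adjusted p = 0.000314). Nr3c1, the glucocorticoid receptor, fell by 0.74 ± 0.15 and 1.00 ± 0.15 (adjusted p = 0.00178 and 0.000151). Fkbp5, a glucocorticoid target, rose by 1.45 ± 0.31 and 1.92 ± 0.32. Tsc22d3, another such target, rose by 1.08 ± 0.37 in the wild type (adjusted p = 0.0309). In the knockout it was at 0.49 ± 0.36 (adjusted p = 0.283). Igfbp1 rose by 2.72 ± 0.62 and 2.86 ± 0.62. Pck1 fell by 0.84 ± 0.30 in the wild type (adjusted p = 0.0413) and was at -0.58 ± 0.30 in the knockout. G6pc (now G6pc1) fell by 1.70 ± 0.55 in the knockout (adjusted p = 0.0228) and was at -0.74 ± 0.54 in the wild type. Cebpb fell by 0.82 ± 0.23 in the knockout (adjusted p = 0.0115) and was at -0.08 ± 0.23 in the wild type. Ppargc1a, a coactivator of glucose production, averaged 0.763 ± 0.460 CPM on chow and 6.17 ± 1.19 CPM on MCD in the wild type (SD, n = 4), a rise of 2.93 ± 0.49 on the log2 scale, and it rose by 3.83 ± 0.54 in the knockout.

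Of 8 hepatocyte transcription factors 4 passed lower and 1 higher in the wild type, and 1 lower and 2 higher in the knockout. Over all genes 15.9% passed lower and 18.2% higher in the wild type, and 18.5% and 21.9% in the knockout. Cebpa, a factor of many liver enzymes, fell by 0.99 ± 0.31 and 1.03 ± 0.31. Onecut1 fell by 3.57 ± 0.92 in the wild type and Foxa2 by 1.33 ± 0.35, and Nr1i3, the receptor CAR, rose by 2.12 ± 0.57 there and by 1.78 ± 0.57 in the knockout. Onecut1 overlapped between the wild-type diets, at 3.14 to 130 CPM on chow and 5.16 to 10.7 CPM on MCD. In the knockout Onecut1 and Foxa2 did not pass, at -1.98 ± 0.86 and -0.43 ± 0.35 (adjusted p = 0.0749 and 0.338). Prox1 rose by 0.98 ± 0.32 in the knockout (adjusted p = 0.0233). Of 11 clock genes 10 did not pass in the wild type and 8 did not in the knockout, where 34.1% and 40.4% of all genes passed. Those that passed were Per1, which rose in both genotypes, by 1.70 ± 0.56 and 2.23 ± 0.58, and Dbp and Tef. Dbp and Tef fell in the knockout, by 3.01 ± 0.88 and 0.89 ± 0.24. Dbp ran from 3.48 to 148 CPM among the knockout libraries on chow alone.

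Markers of other cells moved too. The 4 bile duct markers found in the table summed to 124 to 156 CPM on chow and 182 to 326 CPM on MCD. Of these 4 markers 3 passed higher in each genotype, where 18.2% and 21.9% of all genes did. All 4 red cell genes passed lower in each genotype, where 15.9% and 18.5% of all genes did. Summed, the red cell genes were at 456 to 4536 CPM on chow and 79.2 to 219.8 CPM on MCD. The 4536 CPM was that of the knockout-labelled chow library 4, and the next highest chow library was at 1593 CPM. Of 8 macrophage markers 2 passed higher and 2 lower in each genotype: Gpnmb rose by 4.57 ± 0.39 and 4.05 ± 0.38 and Csf1r by 0.98 ± 0.29 and 0.83 ± 0.29, while Clec4f fell by 1.51 ± 0.37 and 1.68 ± 0.38 and Marco fell by 1.64 ± 0.58 and 2.81 ± 0.61. Summed macrophage markers were at 284 to 523 CPM on chow and 357 to 564 CPM on MCD, stellate markers at 231 to 442 and 395 to 1119 CPM, endothelial markers at 113 to 195 and 118 to 239 CPM, and lymphocyte markers at 7.77 to 23.8 and 16.3 to 41.0 CPM. For the stellate markers the 1119 CPM was that of the wild type on MCD number 2, and the next highest MCD library was at 605 CPM. None of the markers of these cells was at 0 in all libraries of a group. Their part in the levels of the 9 enzymes was not tested.

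The genes whose log2 CPM followed each enzyme most closely over the 16 libraries differed between the enzymes. These correlations are descriptions over libraries that share 4 groups. Differences between the groups can raise them, so the value after removing the group means is given beside each. Hpd ran with Gcdh, glutaryl-CoA dehydrogenase, at a Pearson r of 0.991 and 0.987 after removal, and with Qdpr, dihydropteridine reductase, at 0.978 and 0.952. Tdo2 ran with Sod2 at 0.953 and 0.952. Hal ran with Cbs, cystathionine beta-synthase, at 0.989 and 0.887, and Hgd with Tmem86b at 0.981 and 0.859. Fah ran with Gsta4 at 0.989 and 0.779, Sds with Abhd15 at 0.943 and 0.884, Aadat with Cyp2a2, which has close copies among the Cyp2a genes, at 0.957 and 0.766, and Agxt with Tk2 at 0.954 and 0.721. For Tat the closest gene, Cast, reached 0.769 and 0.816. Leaving out the 3 libraries that stood apart, the values after removal were 0.769 for Hpd with Gcdh, 0.266 for Hpd with Qdpr, 0.746 for Tdo2 with Sod2, 0.878 for Hal with Cbs and 0.598 for Hgd with Tmem86b. They were 0.767 for Fah with Gsta4, 0.618 for Sds with Abhd15, 0.782 for Aadat with Cyp2a2, 0.421 for Agxt with Tk2 and 0.783 for Tat with Cast.

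Among the enzymes themselves, Fah was close to Hal (Pearson r = 0.958 over the 16 libraries), Aadat (0.942) and Hgd (0.928), but after removal of the group means these fell to 0.195, 0.638 and 0.0912. Hpd and Tdo2 were at 0.814 and 0.838, Hpd and Sds at 0.866 and 0.832, and Hpd and Hgd at 0.435 and -0.833. Without the 3 libraries that stood apart the values after removal were 0.465, 0.131 and -0.33 for these 3 pairs, nearer to 0 in each. Tat was at 0.355 with Hpd, -0.0125 with Hgd and 0.126 with Fah over all libraries. After removal of the group means these were 0.451, -0.27 and 0.263, and without the 3 libraries 0.635, -0.378 and 0.123.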

How the data were processed

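Liver RNA of 16 libraries in 4 groups of 4 was sequenced from stranded mRNA libraries, per the labels' protocols. The first deposited table gives expected counts, estimated by the authors' pipeline. Per the submitters' processing notes the tools were RSEM 1.2.15 and Bowtie2 2.1.0 with build rn6, and which step used each is not stated there. Of the values 88.9% equalled their rounded value exactly, and reads of close copies are shared between genes. The second deposited table holds a normalised signal, the authors' TMM-scaled CPM. All 202017 of its values above 0 are whole multiples of a library constant (tolerance 1e-06), and the reads recovered this way match the rounded counts in 99.918% of cases.

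Rounded counts went into edgeR 4.0.16 (R 4.3.3). filterByExpr kept 11162 of 17168 genes, scaling was by TMM, and each group had its own term over all 16 libraries, with robust quasi-likelihood tests and Benjamini-Hochberg adjustment over all genes tested. Diet was tested within genotype, genotype within diet, and the diet effect between genotypes. The SE is the size of the log2 change divided by the root of F, and 95% intervals use 12 degrees of freedom. The common biological coefficient of variation was 28%, and log2 CPM has a prior count of 2. Totals of 8745756 to 15762650 counts limit the precision of low genes. Alternatives were DESeq2 1.42.0, RLE factors, no scaling factors, any count as the filter, a replicate block, limma 3.58.1 on log2 of deposited CPM plus 1, the 2 groups alone, and leaving out each library or the 3 that stood apart. The recovered reads were added after seeing the data and gave 3809 and 4514 diet calls. The 3 libraries that stood apart were also picked from these data. Label numbers were not taken as pairs in the main fit, since no shared animal or batch is named. Of 24 same-number pairs 7 correlated above 0.1, the highest (0.509) between number 4 of the 2 chow groups. The number 4 libraries come last in the submitters' sample numbering. Whether a number stands for a shared batch was not tested.

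In simulated counts for the wild-type diet contrast (10967 genes), 42 of 100 genes changed 2-fold and 94 of 100 changed 4-fold were recovered, with 10 false calls. Only those genes were changed there and no library was made to stand apart, so these rates need not hold for the measured libraries. The 9 enzymes and the companion lists were chosen with earlier results of these data known. Beside the 9, each diet contrast names up to 2 called enzymes per route and direction, by smallest p. Up to 3 called genes each of the hepatocyte factor and clock lists are named likewise. Of the glucagon and glucocorticoid response list every called gene is named. Of the 2 genes most correlated with each enzyme among 10743 candidates, the first is always given. Promoters come from RefSeq on GRCr8.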

Additional observations from a re-analysis of the deposited data

Results flagged for a closer look

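In each group of 4 libraries the highest and lowest were compared with the rest by Dixon's ratio, in 36 groups (9 enzymes in 4 groups), of which chance alone would mark about 1 in 20. It marked 6. The wild type on chow number 4 was far above the other 3 libraries of its group for Hpd (3193 CPM) and Tdo2 (2822 CPM), and the library labelled knockout on chow number 4 likewise for Hpd (7567 CPM) and Tdo2 (2132 CPM). Hgd was far below the rest in the library labelled knockout on MCD number 1 (86.85 CPM) and in the wild type on MCD number 4 (92.39 CPM). Of these 4 libraries 3 are those that stood apart on the second principal component, and the wild type on MCD number 4, at 3.11 there, is not.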

How the results depend on the processing

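For the 9 enzymes no alternative and no left-out library reversed a called diet difference. The diet counts over the 9 ranged, over the 16 fits without 1 library, from 6 to 7 lower in each genotype and were 0 higher throughout. With no scaling factors 3 were lower in the knockout, where 6853 genes passed in all. There Hgd (-0.488, adjusted p = 0.0699), Hpd (-0.853, 0.0768), Agxt (-0.128, 0.54) and Aadat (-0.239, 0.243) fell short, as did Aadat in the wild type (-0.373, 0.0878). Of the settings tried, Hpd passed in the wild type with the replicate block (-1.05, adjusted p = 0.0372), with the 2 groups alone (-1.19, 0.0124), without the 3 libraries that stood apart (-0.758, 0.000261), and without knockout on chow number 1, 3 or 4. Over the fits without 1 library it ran from -1.35 to -0.758 in the wild type and from -1.88 to -0.72 in the knockout. DESeq2 gave no adjusted p for Hpd.

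Among other amino acid enzymes, those passing higher in the wild type were 4 with DESeq2, 4 with limma, 4 with the replicate block, 8 with no scaling factors and 8 without the 3 libraries, and 14 passed lower with no scaling factors. Without 1 library they were 2 to 7. In the knockout 10 passed higher and 8 lower with no scaling factors, and 4 passed higher with the block, 4 with the 2 groups alone, 8 without the 3 libraries and 2 to 6 without 1 library. Genes passing between genotypes on chow were 14 with DESeq2, 2 with no scaling factors, 2 with limma, 0 with the 2 groups alone, 516 without the 3 libraries (2 of them other amino acid enzymes, both higher) and 0 to 17 without 1 library, the 17 without wild type on chow number 4. On MCD 1 passed without the 3 libraries and 0 to 1 without 1 library. For the difference of diet effects 1 passed with DESeq2 and 20 without the 3 libraries. The cause of these shifts was not tested.

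Signs changed only among differences that passed no test. Between diets in the wild type Tat was 0.524 with no scaling factors, 0.00169 with the block, 0.252 without the 3 libraries and -0.211 to 0.253 without 1 library, and Tdo2 was 0.0625 without the 3 and -1.41 to 0.0633 without 1. In the knockout Tat was 0.749 with no scaling factors, 0.364 without the 3 and -0.446 to 0.165 without 1, and Tdo2 was 0.155 with no scaling factors. Between genotypes on chow DESeq2 and RLE factors gave 0.00223 and 0.00118 for Aadat, 0.0261 and 0.0255 for Agxt, 0.0157 and 0.014 for Fah and 0.0267 and 0.0261 for Tat. No scaling factors gave -0.154 for Hal, -0.0461 for Sds and -0.217 for Tdo2. The block gave 0.00317 for Agxt, -0.298 for Sds and 0.0333 for Tat, limma 0.00947, -0.664 and 0.0349, and leaving out the 3 libraries 0.0054, -0.52 and 0.0633. Without 1 library the ranges on chow were -0.128 to 0.0874 (Aadat), -0.122 to 0.114 (Agxt), -0.0443 to 0.0326 (Fah), -0.0677 to 0.334 (Hal), -0.145 to 1.24 (Hpd), -1.73 to 1.52 (Sds), -0.204 to 0.263 (Tat) and -0.546 to 1.21 (Tdo2). On MCD, leaving out the 3 libraries gave 0.014 for Fah, 0.0919 for Hgd and 0.175 for Tat, and the block 0.00229 for Hgd. Without 1 library the ranges on MCD were -0.219 to 0.0369 (Aadat), -0.111 to 0.0326 (Fah), -0.0862 to 0.172 (Hal), -0.116 to 0.0915 (Hgd) and -0.436 to 0.175 (Tat). The difference of diet effects with no scaling factors was 0.134 for Aadat, 0.194 for Fah, 0.177 for Hal and 0.225 for Tat. It was 0.00416 for Fah with limma, and without the 3 libraries 0.0352 for Fah, 0.112 for Tat and -0.398 for Tdo2. Its ranges without 1 library were -0.196 to 0.0645 (Aadat), -0.096 to 0.047 (Fah), -0.291 to 0.111 (Hal), -0.905 to 0.482 (Hpd), -0.708 to 2.54 (Sds), -0.433 to 0.178 (Tat) and -0.69 to 1.07 (Tdo2).

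The replicate numbers gave correlations of -0.381 to 0.509 over 24 same-number pairs (median 0.0327), and 6 of 16 libraries correlated best with their own number. Under the replicate block 7 of 9 enzymes passed lower in the wild type. Depth limits Sds and Tspo, whose lowest libraries held 16 and 6 counts.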
